A study of Mus musculus with 3 samples.

Results

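The 6 Iroquois homeobox genes of the mouse, Irx1 to Irx6, were followed in mpkDCT4a cells, a mouse kidney line labelled as distal convoluted tubule. They were taken by symbol from 55487 genes in the count table, and all 6 were present. The study's title names the three-dimensional organisation of gene control in this nephron segment. Its RNA part holds 3 libraries of unmodified cells, which form 1 group, so that no conditions could be compared. The cells had grown at 37 °C with 2% serum, dexamethasone (50 nM), triiodothyronine (1 nM), epidermal growth factor (10 ng/ml), insulin (5 µg/ml), transferrin (5 µg/ml) and glucose (20 mM). RNA depleted of ribosomal RNA was sequenced. Whether the 3 replicates are separate cultures is not stated, so p-values cover no more than the variation among these libraries, and that may be technical.

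Iroquois genes encode homeodomain transcription factors of the TALE class, whose homeodomain carries an insertion between its first helices. In mammals they lie in paired clusters that arose by duplication, so that each gene has a counterpart at the like place of the other cluster (Irx1 and Irx3, Irx2 and Irx5, Irx4 and Irx6). In the developing nephron, Irx1, Irx2 and Irx3 mark the middle segment that gives rise to the loop of Henle.

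All 6 genes carry a homeobox, and its DNA is shown because it bears on whether reads of the 6 genes can be told apart. The 45 coding bases around the recognition helix, which contacts DNA, are given 5′ to 3′ on the gene's own strand, with bases that differ from Irx2 in capitals (GENCODE M21, GRCm38).
Irx1: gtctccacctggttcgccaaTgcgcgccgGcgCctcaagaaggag
Irx2: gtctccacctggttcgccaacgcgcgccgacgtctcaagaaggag
Irx4: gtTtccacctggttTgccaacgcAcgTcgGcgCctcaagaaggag
Irx3: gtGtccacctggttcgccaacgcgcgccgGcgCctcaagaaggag
Irx5: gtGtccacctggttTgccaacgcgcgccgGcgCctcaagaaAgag
Irx6: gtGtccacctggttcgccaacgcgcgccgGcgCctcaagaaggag
The stretch of Irx2 lies at chr13:72630802-72630846 on the plus strand, inside a coding exon. Between 3 and 6 of its 45 bases differed in the other genes. Irx3 and Irx6 are identical to each other over these 45 bases. Over the whole homeobox of 189 bases, Irx5 was the closest to Irx2 at 91.0% identity, followed by Irx1 (87.8%), Irx3 (85.2%), Irx4 (83.1%) and Irx6 (83.1%). The longest run identical to Irx2 was 65 bases in Irx5 and at most 32 bases in the other genes. Of all 50-base stretches in the transcripts of Irx2, 0.481% occur in a transcript of another gene, on either strand. The share was 0.552% in Irx5, 4.16% in Irx3, 3.53% in Irx6 and 0 in Irx1 and Irx4. Any other gene was counted, so the shares of Irx3 and Irx6 take in exons that overlap an antisense gene. The overlap covers 124 exon bases of Irx3 and 152 of Irx6. Shares with other Iroquois genes alone were not computed. A read from a shared stretch could have been counted for either gene or for neither, and the rule used for such reads is not stated.

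Irx2 was the main Iroquois gene of these cells. Irx2 (ENSMUSG00000001504, GRCm38 chromosome 13, 72628820 to 72634198, plus strand) had 21, 29 and 25 counts in replicates 1, 2 and 3. That is 54.8 ± 5.89 CPM (counts-per-million of the scaled library size, mean ± SD, n = 3), with an exact Poisson 95% interval of 43.3 to 69.0 CPM on the summed count. Irx1 (ENSMUSG00000060969, chromosome 13, 71957921 to 71963723, minus strand), its neighbour, had 2, 1 and 1 counts, or 2.98 ± 1.42 CPM with an interval of 0.800 to 7.52 CPM. Irx4 (ENSMUSG00000021604, chromosome 13, 73260479 to 73269608, plus strand), known for its role in the ventricle of the heart, had 0 counts in all 3 libraries. Every library thus placed Irx2 high, Irx1 at 1 or 2 counts and Irx4 at none. These intervals and all limits below cover counting error only.

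The cluster on chromosome 8 was nearly silent at this depth. Irx5 (ENSMUSG00000031737, chromosome 8, 92357625 to 92376286, plus strand) had 1, 0 and 0 counts, or 0.769 ± 1.33 CPM, with an interval of 0.0186 to 4.09 CPM. Irx3 (ENSMUSG00000031734, 91798525 to 91802067, minus strand) and Irx6 (ENSMUSG00000031738, 92674288 to 92680956, plus strand) were without a count in each library. Irx3 and Irx5 are known from limb and heart development. A single count in 1 library is all that this cluster gave. The totals were 436983, 482418 and 443192 counts per library, so that 0 counts in all of them allow a level of up to 2.20 CPM, which corresponds to 3 counts over the libraries together. This limit is one-sided, whereas the two-sided interval given for the genes with counts would reach 2.71 CPM at 0 counts. Exons of an antisense gene cover 4.49% of the exon bases of Irx3 and 4.51% of those of Irx6. Without strand information, reads there cannot be told from those of the antisense gene, and the strand setting of the counting is not stated.

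**Figure D1:**
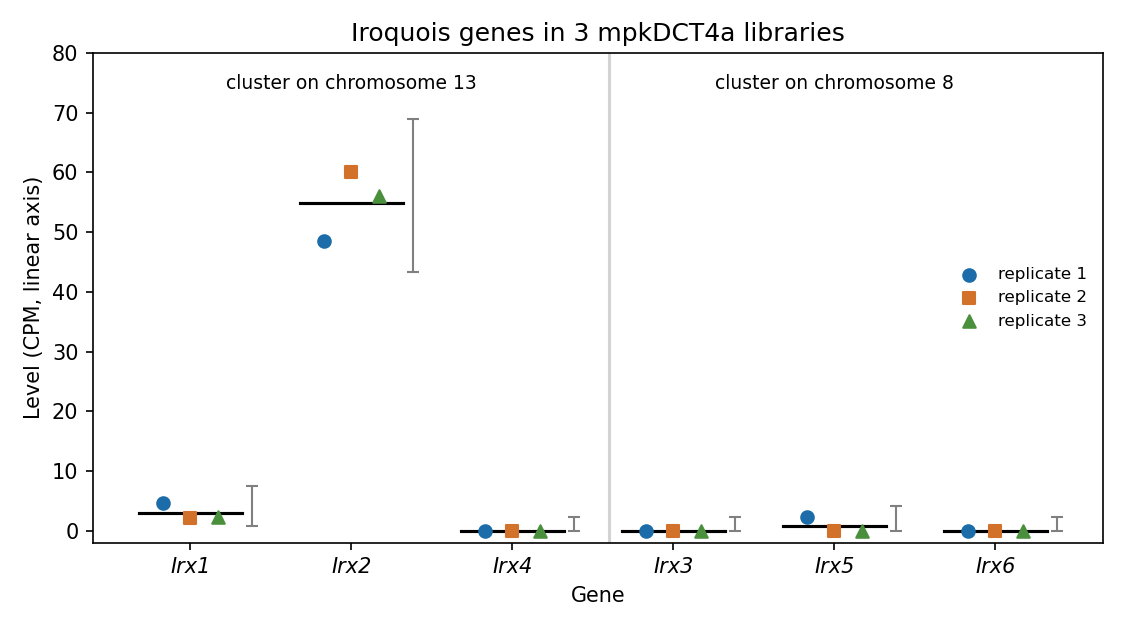
Level of each Iroquois gene in CPM on a linear axis, with 1 point per library, the mean over 3 libraries as a black line, and in grey the exact Poisson 95% interval of the summed count or, for genes with 0 counts, the range up to the limit of 2.20 CPM. The points of Irx2 lie between 48.5 and 60.1 CPM, above every point of the other 5 genes.

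A mean of at least 1 CPM, which takes 2 counts over the libraries, was called detected. By this rule 2 of the 6 Iroquois genes were detected, against 50.6% of 21974 protein-coding genes. 3 of the 6 had no count at all, against 46.0% of protein-coding genes. With 6 genes these shares lie near the background and are not a result about the family. The median over the 6 genes was 0.385 CPM, and that over all protein-coding genes 1.46 CPM. Irx2 gave 75 of the 80 Iroquois counts, or 93.8% (exact Clopper-Pearson 95% interval 86.0 to 97.9%). Per length, in TPM (transcripts-per-million from exon lengths), Irx2 stood at 61.6 ± 7.33 and exceeded 70.5% of the detected protein-coding genes, whose median was 31.4 TPM. Irx1 exceeded 9.85% of them in TPM.

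The order of the levels was Irx2, Irx1, Irx5 and then Irx3, Irx4 and Irx6 together, in CPM and in TPM (4.16 ± 1.93 TPM for Irx1 and 0.892 ± 1.54 TPM for Irx5). The intervals of Irx1 and Irx5 overlap each other and reach below the limit of 2.20 CPM, so the order below Irx2 was not detectable at this depth. Per length, 0 counts allow 2.94 TPM for Irx3, 3.11 TPM for Irx4 and 2.41 TPM for Irx6.

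No variation of Irx2 between the libraries beyond counting error was detected. A chi-square test of its 3 counts against library size gave a statistic of 0.570 and an adjusted p of 0.971 (Benjamini-Hochberg over 12473 detected genes). Irx1 had an adjusted p of 0.970 by the same chi-square test. With 4 counts in all, however, Irx1 could not have passed after adjustment however its counts were split. Its result therefore says nothing on whether Irx1 varied. Of the detected genes, 0.0401% passed, and 0 of the 2 detected Iroquois genes did. At an unadjusted p under 0.05 the count over all detected genes was 610, or 4.89%, a share close to the threshold itself. Neither Iroquois gene was among them. The common biological coefficient of variation from edgeR was 0.0394.

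Within the cluster on chromosome 13 the genes were far apart in level. Irx2 had 18.8 times the counts of Irx1 (95% exact binomial interval 7.03 to 70.6), or 14.8 times its TPM. Irx2 was at least 25.0-fold higher than Irx4, computed against 3 counts over all libraries. That bound leaves out the counting error of Irx2. Irx1 had 4 counts and Irx4 had 0, a difference that the counting error of 4 counts does not separate from the limit for Irx4. Across the clusters, Irx2 had 75.0 times the counts of its counterpart Irx5, with a wide interval of 13.1 to 3001 since Irx5 had a single count. The sum over Irx1, Irx2 and Irx4 was 79 counts and that over Irx3, Irx5 and Irx6 was 1 count, a ratio of 79.0 (13.8 to 3159). Irx1 and its counterpart Irx3, with 4 and 0 counts, were likewise not separated at this depth. No ratio could be given for Irx3 to Irx5, Irx5 to Irx6, Irx3 to Irx6 or Irx4 to Irx6, whose counts were at or under the floor. 10 comparisons were planned, 8 had a count on either side, and 6 went the same way in all 3 libraries. With 3 libraries the exact two-sided sign-flip permutation test of log2(CPM + 0.5) cannot go below p = 0.25, which those 6 reached (adjusted p = 0.333), so none could pass a threshold of 0.05.

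The promoters of Irx2 and of its silent neighbour Irx4 are shown because one gene was transcribed and the other had no count. RefSeq promoter windows of 300 bases (GRCm38.p6) matched 3 of the 6 genes, Irx2, Irx3 and Irx4. The windows of Irx2 and Irx4 lie mostly upstream of the annotated gene. That of Irx3 (chr8:91801605-91801904, minus strand) lies wholly inside it, so its values are not those of bases upstream of the annotated start. The bases upstream of the first annotated exon are given 5′ to 3′ on the plus strand, chr13:72628570-72628819 for Irx2 and chr13:73260247-73260478 for Irx4, with CpG dinucleotides in capitals.
Irx2: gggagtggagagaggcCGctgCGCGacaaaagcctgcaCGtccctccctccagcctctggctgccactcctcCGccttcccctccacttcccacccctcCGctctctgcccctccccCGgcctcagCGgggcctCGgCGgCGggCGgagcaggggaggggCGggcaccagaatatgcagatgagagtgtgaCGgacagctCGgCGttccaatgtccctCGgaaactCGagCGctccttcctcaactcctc
Irx4: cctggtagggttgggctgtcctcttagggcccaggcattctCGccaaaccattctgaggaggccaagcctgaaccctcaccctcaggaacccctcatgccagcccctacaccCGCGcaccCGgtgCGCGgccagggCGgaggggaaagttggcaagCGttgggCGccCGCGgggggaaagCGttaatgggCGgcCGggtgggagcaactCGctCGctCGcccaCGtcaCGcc
Both stretches are rich in CpG, and each holds 19 of them. Over the full windows, GC content was 69.0% for Irx2, 70.7% for Irx4 and 56.0% for Irx3, beside a median of 52.7% over 32851 windows. The windows held 25, 31 and 14 CpG in the same order, where the median window held 7. The observed CpG count relative to that expected from base composition was 0.723, 0.828 and 0.748, beside a median of 0.384. The windows of both genes without counts were above the median in each of these measures, as was that of Irx2. Letters were searched on both strands. The GC box GGGCGG occurred 2 times in the window of Irx2, 2 times in that of Irx4 and not in that of Irx3, and 35.7% of all windows hold it. CCAAT occurred once in the Irx2 window only (37.4% of all windows). TATAAA (13.6%) and ACANNTGT (7.38%), a site that Iroquois proteins bind, occurred in none of the 3 windows.

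Around the cluster on chromosome 13, the detected genes lay on the Irx4 side. Irx1 and Irx2 are 665 kb apart and Irx2 and Irx4 626 kb, and the 10 other annotated genes between Irx1 and Irx4 had 1 count in all. That count (0, 1 and 0) belonged to Gm20554, a non-coding RNA that starts on the opposite strand, 256 bases before Irx2. Past Irx4, the nearest detected gene was Ndufs6, which encodes a subunit of respiratory complex I, 50.2 kb away at 31.5 ± 5.93 CPM (15, 17 and 11 counts). Next to it Mrpl36, a mitochondrial ribosomal protein gene, had 16, 9 and 12 counts (27.5 ± 9.15 CPM), and the non-coding Eprn had 1, 2 and 1 counts (2.90 ± 1.08 CPM). The silent Irx4 thus stood closer to these expressed genes than Irx2 did. Within 1 Mb of the cluster, 12 of 18 protein-coding genes were detected, all of them on that side, beside 50.6% of all protein-coding genes. The highest of them were Clptm1l (190 ± 17.0 CPM), the potassium chloride cotransporter gene Slc12a7 (169 ± 17.9 CPM) and Lpcat1, an enzyme of phospholipid remodelling (87.6 ± 15.9 CPM). On the Irx1 side no protein-coding gene lies within 1 Mb, and the nearest detected gene was Ice1 at 1320 kb (135 ± 22.4 CPM).

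Around the cluster on chromosome 8, most detected genes lay on the Irx3 side. The 14 other annotated genes between Irx3 and Irx6 had 0 counts, among them Crnde, a non-coding gene on the opposite strand 1505 bases from Irx5. Irx3os, the antisense partner of Irx3, and Gm45505, that of Irx6, are also among these 14, although Gm45505 reaches past the end of Irx6. Fto, which encodes an RNA demethylase, lies 130 kb from Irx3 and had 51, 59 and 55 counts (121 ± 2.94 CPM). The replicates of Fto lay close together. 5 of 6 protein-coding genes on this side were detected, including the cilium gene Rpgrip1l (32.6 ± 10.3 CPM) and Rbl2, a pocket protein gene (54.6 ± 17.1 CPM). On the Irx6 side 1 of 13 was detected, Lpcat2, an enzyme of phospholipid remodelling, 174 kb away (9, 8 and 7 counts, 17.7 ± 2.72 CPM). Most of the 13 are the carboxylesterase genes Ces1a to Ces1h and Ces5a, all at 0 counts. Over all protein-coding genes 50.6% were detected. The matrix metalloprotease gene Mmp2, nearer to Irx6 at 146 kb, had 1 count.

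**Figure D2:**
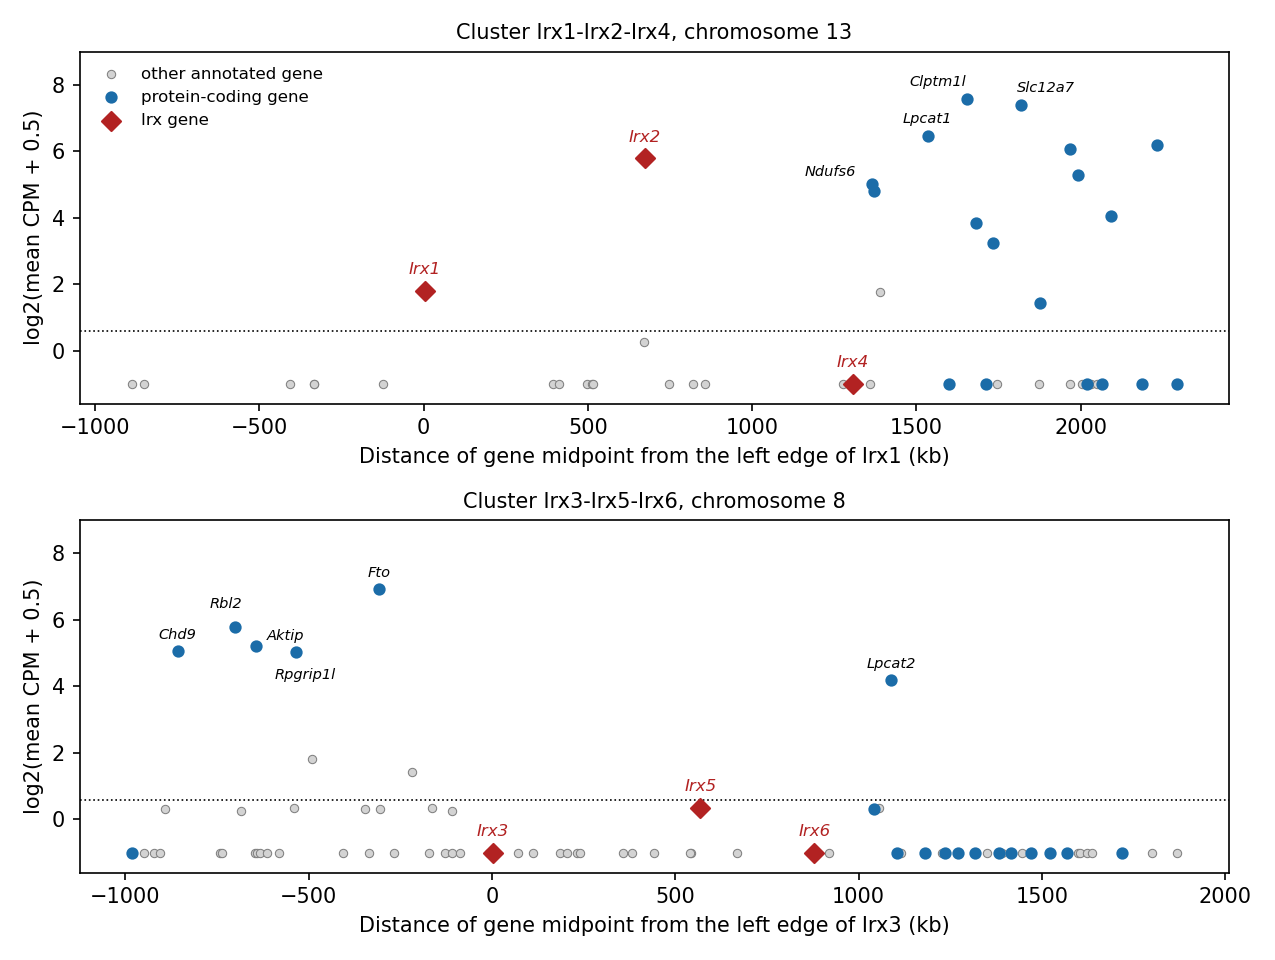
Mean level of each annotated gene as log2(mean CPM + 0.5) against the distance of its midpoint from the left edge of Irx1 (top) or Irx3 (bottom) in kb, within 1 Mb of each cluster; the dotted line marks 1 CPM. Irx2 at 54.8 CPM stands alone between Irx1 and Irx4, and no gene from Irx3 to Irx6 passes the dotted line.

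Other TALE genes, whose proteins include partners of HOX factors, were mostly detected. 11 of 12 passed 1 CPM (median 24.3 CPM), beside 50.6% of protein-coding genes and 2 of 6 Iroquois genes. Meis1 (0, 2 and 0 counts) and Pknox2 (2, 0 and 0 counts) passed on 1 library alone. At a minimum of 10 counts in all, 8 of the 12 were detected. Meis2, a cofactor of HOX proteins, had 31, 26 and 48 (77.6 ± 27.4 CPM), Tgif1, a repressor in TGF-beta signalling, had 20, 35 and 35 (65.7 ± 17.2 CPM) and Pbx3 had 25, 28 and 31 (61.7 ± 6.70 CPM). Per length, Irx2 at 61.6 TPM was above each of the 12 in all 3 libraries, where Pbx2 stood at 45.7 ± 12.7 TPM, Tgif1 at 43.1 ± 11.7 TPM and Meis2 at 23.8 ± 8.51 TPM. Mkx was the TALE gene below 1 CPM, with 1 count.

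Among all 191 homeobox genes listed, Irx2 ranked 9 in TPM and 17 in CPM, which is not divided by length, and Irx1 ranked 57 and 60. Of the 185 homeobox genes outside the family 71 were detected and 107 had no count, with a median of 0 CPM, and 28 of 39 HOX genes were detected (median 5.16 CPM). Among the homeobox genes above Irx2 in TPM were Hoxb9 (225 ± 25.4 TPM), Hoxd8 (156 ± 41.0 TPM) and Pax8 (99.4 ± 12.6 TPM). The homeobox genes whose values lay nearest to those of Irx2, by Euclidean distance of log2(CPM + 0.5) over the 3 libraries, were Pbx3 (0.399), Pou6f1 (0.514; 27, 24 and 21 counts) and Hoxd9 (0.549; 15, 25 and 28 counts). Those nearest to Irx1 were Hoxd4 (distance 0, with the same 2, 1 and 1 counts), Hoxa5 (0.537; 3, 1 and 1 counts) and Lmx1b (1.40; 2, 1 and 3 counts). With 3 libraries of 1 group, this likeness is one of read counts, not of a pattern across conditions.

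**Figure D3:**
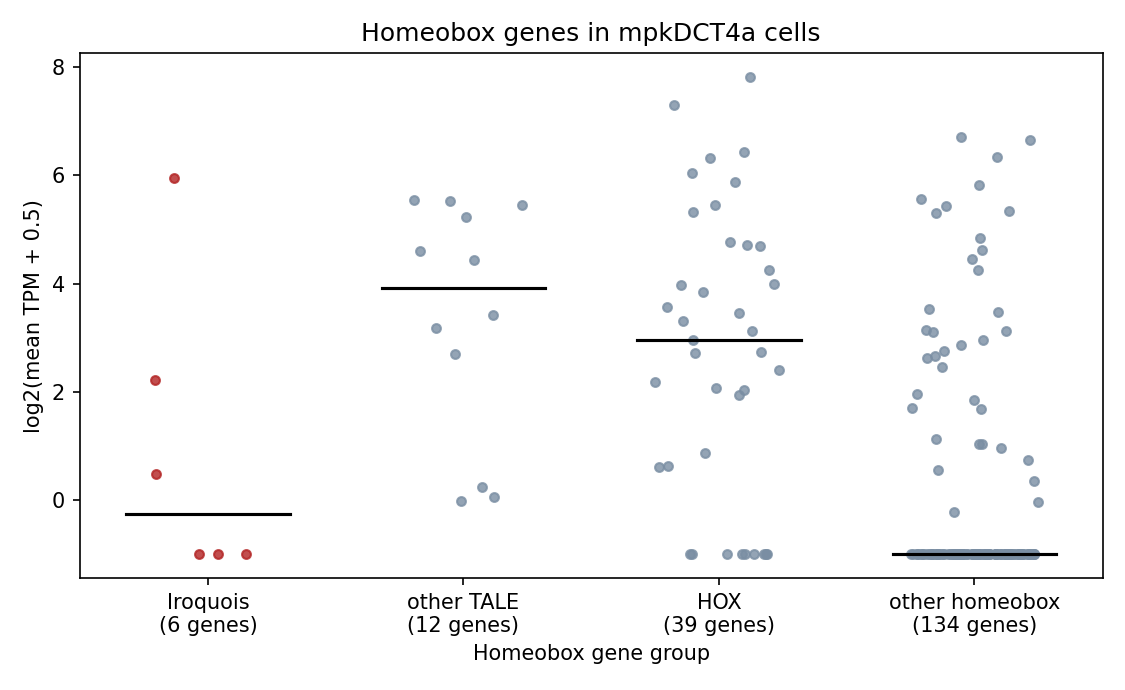
Mean level of homeobox genes as log2(mean TPM + 0.5), 1 point per gene, for 6 Iroquois, 12 other TALE, 39 HOX and 134 other homeobox genes; black lines are medians. 1 Iroquois gene, Irx2 at 61.6 TPM, lies among the upper genes of the other groups, and 3 of the 6 lie at 0 TPM.

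Factors reported to act with or upstream of Iroquois proteins were partly present. 6 of 9 such genes were detected (median 2.15 CPM), beside 50.6% of protein-coding genes, and 4 at a minimum of 10 counts in all. Vdr passed on 1 library alone (0, 0 and 2 counts), and Gata6 had 1, 2 and 0 counts. Rxra, the retinoid X receptor, had 31, 38 and 52 counts (88.9 ± 24.2 CPM), Gata3, a zinc finger factor, 28, 32 and 42 (75.0 ± 16.6 CPM) and Trps1, an atypical GATA protein, 15, 18 and 15 (35.2 ± 1.90 CPM). The heart factors Gata4 and Tbx5 had 0 counts. 11 of 13 nephron patterning factors were detected (median 57.1 CPM). They were led by Pax8 (164 ± 22.0 CPM), Tfap2a (139 ± 14.8 CPM), Esrrb (113 ± 9.74 CPM) and Mecom (105 ± 9.41 CPM), while Pou3f3, a factor of the middle nephron segment, and Emx1 had 0 counts.

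Markers of the labelled cell type were present in part. 5 of 12 markers of the distal convoluted tubule (41.7%) were detected, beside 50.6% of all protein-coding genes. The highest was Wnk4 (45.2 ± 11.2 CPM), and the defining Slc12a3 and Pvalb had 0 counts. No marker list given here exceeded the share over all protein-coding genes, so these numbers by themselves mark no cell type. 2 of 10 markers of the thick ascending limb, a part of the loop of Henle, were detected (Cldn19 and Egf) and Slc12a1 and Umod had 0 counts. Egf is on both lists and had 2, 1 and 0 counts. Detected markers numbered 3 of 8 for the proximal tubule (Lrp2, Aqp1, Cubn), 3 of 8 for podocytes (Podxl, Synpo, Cdkn1c), 0 of 8 for the collecting duct, 2 of 8 for fibroblasts (Col1a1, Pdgfrb), 1 of 6 for endothelium (Flt1), 1 of 6 for adipocytes (Pparg) and 0 of 6 for leukocytes. The summed level per library ran from 66.3 to 94.1 CPM for the distal convoluted tubule list. It was higher for the proximal tubule list (254 to 311 CPM) and the podocyte list (143 to 177 CPM). Most of these came from Lrp2 (215 ± 14.1 CPM) and Podxl (116 ± 18.6 CPM). The sums were lower for the thick ascending limb (2.24 to 10.4 CPM) and fibroblasts (6.72 to 16.6 CPM). The distal convoluted tubule list was thus not the highest of the marker lists. The part of other cell types in the level of Irx2 was not tested, and in bulk RNA few cells with much Irx2 and many with little cannot be told apart.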

How the data were processed

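Total RNA (500 ng per library, fragments of about 300 bp) was depleted of ribosomal RNA per the labels' protocols. The authors deposited whole-number counts per Ensembl gene, not normalised. Per the submitters' processing notes the tools include STAR and HTSeq and the build is mm10, while versions, strand setting and treatment of ambiguous reads are not stated. Columns were matched to replicates by number, and no column went unused. GENCODE M21 named 55227 of 55487 identifiers, and the others held 0.0230% of counts. Library sizes were totals times the TMM factors of edgeR 4.0.16 (R 4.3.3). Per library, 1 count was worth 2.31, 2.07 and 2.24 CPM. TPM used exon lengths from GENCODE. Ratios, chi-square and sign-flip permutation tests used Python 3.11.15 with scipy 1.17.1, numpy 2.4.6 and pandas 2.3.3, figures matplotlib 3.10.9 and translation of coding sequence, to find the homeobox, biopython 1.88. The chi-square test was checked on simulated counts. No edgeR contrast was fitted, since there is 1 group. The planned protein alignment was not made, as protein sequences were not used here.

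The members and gene lists were chosen with earlier results of these data known. Genes were named by rule: all Iroquois genes, genes within 100 kb of them, the nearest detected gene on each side, the 4 highest members of each other list with some members at 0 counts, and the 3 nearest homeobox genes. The other neighbours, Pbx2, Mkx, Meis1, Pknox2, Hoxd8 and the homeobox genes ranked by TPM were named after their values were seen. Part of the genes under this rule is left unreported here. Alternatives were DESeq2 1.42.0 size factors, column totals, other thresholds, pseudocounts and windows, TPM, and leaving out each replicate.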

Additional observations from a re-analysis of the deposited data

How the results depend on the processing

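Across 188 alternative values for 34 results, 164 stayed with the main value and 24 moved, and none reversed. The levels of Irx3, Irx4 and Irx6, at 0 counts, could not move under any alternative, yet they are part of this tally. Small changes near the floor also counted as staying, such as Irx5 at 0 CPM without replicate 1 against 0.769 CPM with all. Irx2 was at 61.6 when expressed as TPM instead of CPM. Its adjusted p of the chi-square test ran from 0.851 to 0.983 over the alternatives. Each log2 ratio of Irx2 to another gene kept its direction under each pseudocount, in TPM and without each replicate. The number of detected Iroquois genes depended on single counts. It was 1 (Irx2) at a minimum of 10 counts in all and 2 to 3 without a replicate, Irx5 being the added gene without replicate 2 or 3. At that minimum of 10 counts, detected genes fell to 8 other TALE genes, 17 HOX genes and 46 homeobox genes outside the family. Detected markers fell to 3 for the distal convoluted tubule, 1 for fibroblasts, and 0 for the thick ascending limb and 0 for adipocytes. Without a replicate, the collecting duct list had 1 to 2 detected genes and the fibroblast list 3 to 4. Genes differing between libraries numbered 1 to 3 without a replicate, 1 of them without replicate 1, against 5 with all. Without replicate 1 the log2 ratios of Irx3 to Irx5 and of Irx5 to Irx6 were 0, since that library held the only count. Leaving out each replicate, they ran from -1.24 to 0 and from 0 to 1.24. Neighbours detected were 8 and 25 around Irx1, Irx2 and Irx4 and 5 and 22 around Irx3, Irx5 and Irx6 with windows of 0.5 and 2 Mb. Leaving out a replicate, an alternative chosen after seeing the data, gave 13 to 15 around the latter against 8, since a single count passes 1 CPM over 2 libraries. No paired analysis was possible because the design has 1 group. Depth limits every statement on the genes at 0 counts to a level of up to 2.20 CPM.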
